A study of Mus musculus with 9 samples.

Results

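Malat1, Neat1, Meg3, Rian, Mirg, Miat and Snhg11 are long noncoding RNAs that are retained in the nucleus or made from an imprinted locus. They were taken by gene symbol, and all 7 were found among the 14444 genes measured in prefrontal cortex of mice of postnatal week 5 to 8. The study asked what UNC0642, an inhibitor of the histone methyltransferases EHMT1 and EHMT2, does in Shank3-deficient mice. Group 1 was wild type given saline (WT-1 to WT-3), group 2 was labelled with the genotype SHANK3 and given saline (SAL-1 to SAL-3), and group 3 had the same genotype and received UNC0642 (UNC-1 to UNC-3) at 1 mg/kg by intraperitoneal injection daily for 3 days. The allele, the strain, the sex and the number of animals behind a library were not found in the labels. All p-values therefore measure the spread between these libraries, which may be technical.

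Malat1 is a very abundant RNA of nuclear speckles, the domains that store splicing factors. Neat1 is the scaffold of paraspeckles, nuclear bodies built around proteins such as Sfpq and Nono. Miat, also called Gomafu, lies in nuclear domains of its own in neurons and binds splicing factors such as Qk and Celf3. Meg3, Rian and Mirg are transcribed in the same direction from the maternal chromosome at the Dlk1-Dio3 imprinted cluster, whose paternal chromosome expresses the protein-coding genes Dlk1, Rtl1 and Dio3. Rian carries small nucleolar RNAs and Mirg carries many microRNAs. Snhg11 is a small nucleolar RNA host gene known for its expression in neurons. In GENCODE M21, Malat1 and Neat1 lie on chromosome 19, the imprinted RNAs on chromosome 12, Miat on chromosome 5 and Snhg11 on chromosome 2, where it is classed as protein-coding although RefSeq lists it as a long noncoding RNA. Meg3, Rian and Mirg follow each other on the same strand, so the assignment of reads from long transcripts that run between them is uncertain.

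Promoters of 6 of the 7 genes, from 250 bases before to 50 bases after a start site, were found in RefSeq (GRCm38.p6). The 3 printed here are those of the RNAs with the highest levels per kilobase, Snhg11, Meg3 and Malat1. Capitals mark motifs searched on both strands: TGACGTCA, the cAMP response element, its shorter form TGACG, which the other strand shows as CGTCA and which is counted also inside the full element, and TATAAA, shown by the other strand as TTTATA. The first of 2 Meg3 promoters is chr12:109540746-109541045 on the plus strand, the Malat1 promoter chr19:5802623-5802922 on the minus strand and the Snhg11 promoter chr2:158375463-158375762 on the plus strand.
Meg3: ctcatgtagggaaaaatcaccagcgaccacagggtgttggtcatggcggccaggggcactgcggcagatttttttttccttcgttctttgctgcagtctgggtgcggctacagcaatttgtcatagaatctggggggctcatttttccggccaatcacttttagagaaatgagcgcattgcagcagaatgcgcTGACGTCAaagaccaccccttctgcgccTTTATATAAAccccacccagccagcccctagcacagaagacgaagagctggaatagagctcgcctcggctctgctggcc
Malat1: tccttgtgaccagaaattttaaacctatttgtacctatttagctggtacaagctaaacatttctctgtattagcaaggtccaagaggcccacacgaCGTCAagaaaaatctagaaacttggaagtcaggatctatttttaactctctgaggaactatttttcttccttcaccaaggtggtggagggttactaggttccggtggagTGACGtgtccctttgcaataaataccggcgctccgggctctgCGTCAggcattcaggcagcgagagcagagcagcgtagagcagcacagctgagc
Snhg11: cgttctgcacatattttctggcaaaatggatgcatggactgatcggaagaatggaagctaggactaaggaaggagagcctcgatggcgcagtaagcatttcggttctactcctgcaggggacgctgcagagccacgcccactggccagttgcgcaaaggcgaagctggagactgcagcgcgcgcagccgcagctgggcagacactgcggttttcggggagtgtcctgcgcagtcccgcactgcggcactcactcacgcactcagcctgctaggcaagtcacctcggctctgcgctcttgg
The full element TGACGTCA stood in the first Meg3 promoter and in 1.79% of the 32851 mouse promoters of the same length. TATAAA, also in Meg3, was found in 13.6% of them, and TGACG, in Meg3 and Malat1, in 20.8%. Snhg11 held none of these motifs in this window, nor did the second Meg3 promoter, chr12:109545148-109545447 on the plus strand. A match is a description of the sequence only.

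The Mirg gene spans 10 microRNA hairpins with 19 mature microRNAs and 18 different seeds, in RefSeq on GRCm38.p6. Rian spans 3 hairpins and Meg3 spans 1, and the other 4 genes none. The microRNAs were not measured here. Of those of Mirg, 6 are printed because its ratios to Meg3 and Rian, given below, did not overlap between the genotypes. Such a gap was found for 13.5% of the ratios between all genes compared. The capitals mark the seed, bases 2 to 8, and miR-453 and miR-496a-5p share theirs, while the other 4 each have a seed of their own.
mmu-miR-453: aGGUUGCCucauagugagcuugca
mmu-miR-496a-5p: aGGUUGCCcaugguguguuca
mmu-miR-154-5p: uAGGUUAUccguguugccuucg
mmu-miR-377-3p: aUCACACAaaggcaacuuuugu
mmu-miR-409-3p: gAAUGUUGcucggugaaccccu
mmu-miR-369-3p: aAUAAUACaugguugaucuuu

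The libraries held 12035098 to 16165483 reads assigned to genes. These reads were recovered from the deposited values, which the authors had adjusted so that 2 sets of libraries had the same mean log2 value for every gene: WT-1 to WT-3 with UNC-2 and UNC-3 in 1 set, and SAL-1 to SAL-3 with UNC-1 in the other. Each value below is given on the recovered scale (RPM, recovered reads per 1000000 of the TMM-scaled library, without the adjustment) or the deposited scale (with it), and is named as such. In the recovered reads the libraries also fell into 2 sides, the 4 libraries WT-1, WT-2, WT-3 and UNC-3 against the other 5, so wild type and saline mutant lie entirely on opposite sides, and genotype and side cannot be told apart except through UNC-3. No label names a batch or these sides. The sides were taken from these same data, so counts and fits by side are descriptions and do not test the division. Shank3, the gene named in the genotype, stood at 301 to 348 RPM in wild type, 324 to 350 in the saline mutants and 294 to 316 with UNC0642. As the sources used here do not place the deleted part, this level does not check the labels. All 12 neuron markers were measured, and none was at 0 reads when the 9 libraries were added up.

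Per kilobase of exon in wild type, Snhg11 and Meg3 had the highest levels, with 262 ± 48.2 and 206 ± 38.3 RPKM (RPM per kilobase; mean ± SD, n = 3). Their ranges over the 3 libraries overlapped, although Snhg11 was above Meg3 within each of them, with 210, 272 and 305 RPKM against 164, 215 and 239 in WT-1, WT-2 and WT-3. Malat1 followed with 141 ± 33.2 RPKM, Miat with 65.2 ± 11.2 and Rian with 39 ± 3.11, while Mirg (2.64 ± 0.719) and Neat1 (1.89 ± 0.325) were far lower and their ranges overlapped. The lengths are unions of the exons of all transcripts in GENCODE M21. With the longest transcript in their place Rian came to 87.9 RPKM and stood above Miat at 66.1, so the order of these 2 depends on the length used. Snhg11 then had 381 ± 70.1 RPKM and Meg3 256 ± 47.6, and Mirg 5.03 ± 1.37 and Neat1 1.89 ± 0.325. The overlaps of ranges given above for these 2 pairs thus hold for the exon unions only. Of all reads, Meg3 took 0.326%, Snhg11 0.174%, Malat1 0.0788%, Rian 0.0661%, Miat 0.0555%, Neat1 0.00313% and Mirg 0.0014%. Neat1 and Mirg, with 273 to 602 and 120 to 317 reads per library, have the widest counting error.

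**Figure D1:**
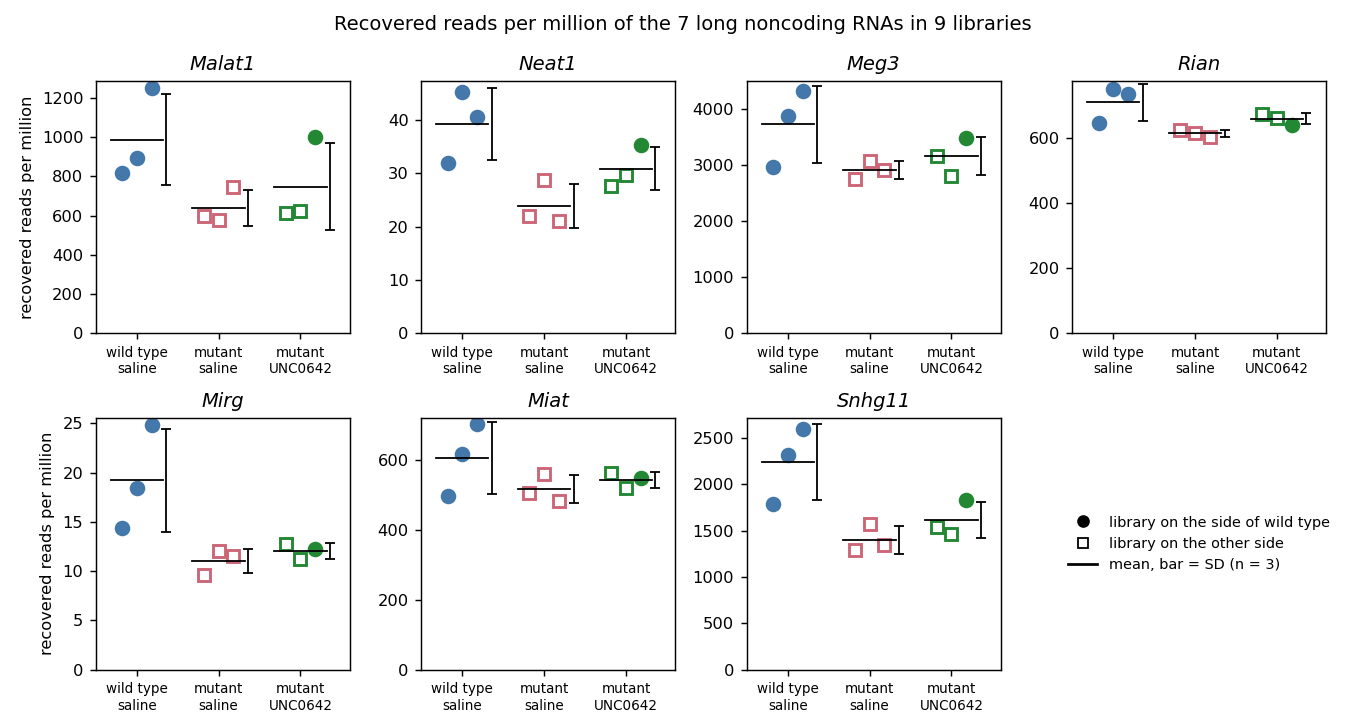
Recovered RPM (vertical axes from 0) of each RNA in the 9 libraries by group, filled circles for libraries on the side of wild type and open squares for the other side, with the group mean and SD (n = 3). Malat1, Neat1 and Snhg11 are higher in all 4 filled libraries than in all 5 open ones, and Mirg is higher in the 3 wild-type libraries than in all 6 mutant libraries.

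Of the RNAs of nuclear domains, Malat1 and Neat1 did not overlap between the saline groups on the recovered scale, and Miat did. Malat1 had 817, 893 and 1251 RPM in WT-1, WT-2 and WT-3, 596, 579 and 744 in SAL-1, SAL-2 and SAL-3, and 613, 624 and 1003 in UNC-1, UNC-2 and UNC-3. The highest saline mutant library lay below the lowest wild-type one, and UNC-3 lay within the wild-type range. Neat1 had 32, 45.3 and 40.5 RPM in wild type, 21.9, 28.7 and 21 in the saline mutants and 27.6, 29.7 and 35.3 with UNC0642. As for Malat1, the saline groups did not overlap and UNC-3 was within the wild-type range, although the 95% Poisson intervals of WT-1 (28.8 to 35.4) and SAL-2 (26.1 to 31.6), which cover counting error only, overlapped. Miat had 497, 616 and 704 RPM in wild type, 507, 560 and 483 in the saline mutants and 563, 519 and 550 with UNC0642. Its 3 groups overlapped, and WT-3 was its highest library.

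In the imprinted cluster, Meg3 had 2972, 3885 and 4332 RPM in wild type, 2751, 3076 and 2915 in the saline mutants and 3173, 2814 and 3495 with UNC0642, and these groups overlapped. Rian varied least, with 646, 752 and 735 RPM in wild type, 626, 616 and 605 in the saline mutants and 675, 662 and 642 with UNC0642. All saline mutant libraries were below all wild-type ones, but WT-1 and SAL-1 were close. Mirg had 14.4, 18.4 and 24.8 RPM in wild type, 9.63, 12 and 11.5 in the saline mutants and 12.8, 11.2 and 12.2 with UNC0642. Mirg was the RNA of the 7 for which all 6 mutant libraries lay below all wild-type libraries, UNC-3 included. The edge of that gap is within counting error, with Poisson intervals of 12.3 to 16.8 for WT-1 and 10.8 to 14.9 for UNC-1. Snhg11, outside the cluster, had 1791, 2317 and 2601 RPM in wild type, 1286, 1569 and 1346 in the saline mutants and 1537, 1463 and 1833 with UNC0642. Its saline groups did not overlap, and UNC-3 reached just above WT-1.

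Counted over the list, 5 of 7 RNAs (all but Meg3 and Miat) had every saline mutant library below every wild-type one, against 19.8% of all genes. For UNC0642 against wild type this held for 1 of 7 (Mirg), against 8.71% of genes, and for all 6 mutant libraries against wild type also for Mirg alone, against 6.29%. By side rather than genotype, 3 of 7 (Malat1, Neat1 and Snhg11) were lower in all 5 libraries of one side than in all 4 of the other, against 13.6% of genes. UNC-3, the 1 mutant library on the side of wild type, lay within the wild-type range for 5 of 7, the exceptions being Rian and Mirg. The share of all genes for which this holds was not counted, so it describes the 7 RNAs only. On the log2 scale of recovered RPM, UNC-3 minus the wild-type mean was 0.05 for Malat1 and -0.62 for Mirg, with Snhg11 at -0.27, Neat1 and Rian at -0.14, Miat at -0.12 and Meg3 at -0.08.

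For saline mutant against wild type in the deposited values, the log2 differences were negative for 7 of 7 RNAs, from -0.31 ± 0.19 (SE) for Mirg and -0.21 ± 0.15 for Snhg11 to -0.08 ± 0.08 for Rian, while 48.7% of all genes were below 0. The median was -0.12, against 0.00 over all genes. None of the 7 and none of the 14444 genes (0%) passed the limma test at a Benjamini-Hochberg adjusted p under 0.05, and 19 genes had an unadjusted p under 0.05 (0.0831% of all genes on the lower side), none of them among the 7. By construction, these values hold a difference between the saline groups only as far as the UNC0642 libraries of the 2 sets offset it, so the absence of calls here does not show that the groups were alike. The log2 shift that the adjustment had taken out, saline mutants with UNC-1 minus the other libraries, was -0.55 for Neat1, -0.51 for Malat1, -0.46 for Snhg11 and -0.44 for Mirg, and -0.22 for Meg3 and -0.12 for Rian and Miat.

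In the recovered reads, limma-voom called 4 of the 7 lower in the saline mutants, where 6.71% of all genes were called lower, and all 7 were below 0, with 49.6% of all genes. The log2 differences were -0.77 ± 0.18 (SE; adjusted p = 0.024) for Mirg, -0.71 ± 0.15 (0.019) for Neat1, -0.66 ± 0.13 (0.017) for Snhg11 and -0.61 ± 0.18 (0.046) for Malat1. Geometric mean RPM in the saline mutants was 0.59 (Mirg), 0.61 (Neat1), 0.63 (Snhg11) and 0.66 (Malat1) of wild type. Meg3 (-0.34 ± 0.12, adjusted p = 0.076), Rian (-0.20 ± 0.08, 0.086) and Miat (-0.22 ± 0.11, 0.18) did not pass. With 1 of the 6 libraries left out, the number of the 7 called was 7 without WT-1, 1 (Snhg11) without WT-3, 2 (Neat1 and Snhg11) without SAL-2, and 0 without WT-2, SAL-1 or SAL-3. Of all 14444 genes, these fits called 968 lower without WT-1, 268 without WT-3 and 294 without SAL-2. Without WT-2, SAL-1 and SAL-3 they called 10, 12 and 18 lower, so calls fell over all genes and not only among the 7. The log2 differences of the 4 then ran from -0.95 to -0.57 for Mirg, -0.86 to -0.60 for Neat1, -0.81 to -0.55 for Snhg11 and -0.73 to -0.43 for Malat1, and those of the other 3 were negative too, up to -0.10 for Miat. With the side as a term, which leaves the genotype to UNC-3, 0 genes were called by limma-voom and 709 had an unadjusted p under 0.05. Mirg was then at -0.73 ± 0.33 (unadjusted p = 0.042, adjusted p = 0.97), Neat1 at -0.42, Snhg11 at -0.37, Rian at -0.26, Miat at -0.19, Meg3 at -0.11 and Malat1 at 0.09.

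**Figure D2:**
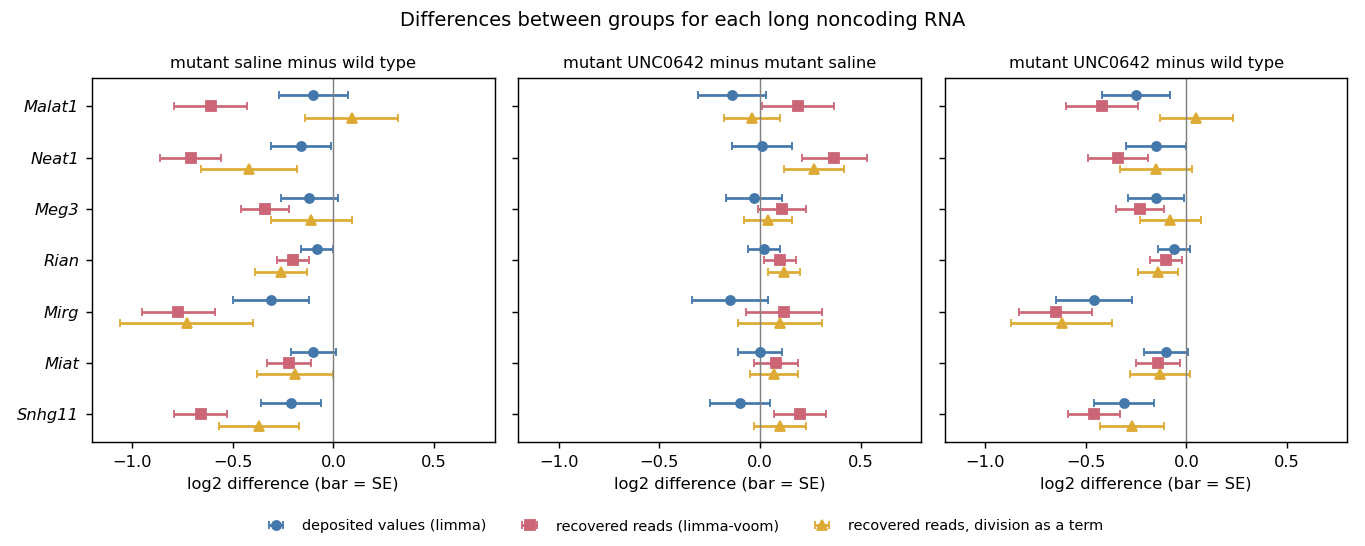
Log2 difference (horizontal axis) with its SE for each RNA in the 3 comparisons, from the deposited values, from the recovered reads and from the recovered reads with the side of the library division as a term. For saline mutant minus wild type, Mirg is at -0.73 on the recovered reads with the side and -0.77 without it, whereas Malat1 goes from -0.61 to 0.09.

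UNC0642 against saline within the mutants gave no call. In the deposited values 5 of 7 were below 0, with 49% of all genes, from -0.15 ± 0.19 for Mirg to 0.02 ± 0.08 for Rian, and the median was -0.03. By limma 0 genes passed the adjusted threshold and 281 had an unadjusted p under 0.05 (1.16% of all genes on the lower side), none of them among the 7. The sign of these small differences turned with the data used: in the recovered reads 0 of 7 were below 0 (51% of genes), from 0.08 ± 0.11 for Miat to 0.37 ± 0.16 for Neat1. Because UNC-3 lies on the side of wild type, UNC-1 and UNC-2 were also compared with the 3 saline libraries on their own side. There Rian was 0.12 ± 0.05 (unadjusted p = 0.021, adjusted p = 0.77), Neat1 0.27 ± 0.13, Snhg11 and Mirg 0.10 ± 0.07 and 0.10 ± 0.16, Miat 0.06 ± 0.06, Meg3 0.03 ± 0.05 and Malat1 -0.04 ± 0.08, so 1 of 7 was below 0, with 49.7% of genes. By limma-voom 0 genes were called there and 853 had an unadjusted p under 0.05. For Rian, UNC-1 and UNC-2 both lay above all 3 saline libraries, as 10.2% of all genes did, and for the other 6 they did not.

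The last comparison was that of UNC0642-treated mutants against wild type. Its log2 differences in the deposited values were below those of the other 2 for Mirg, Snhg11, Malat1, Meg3 and, beyond the second decimal only, Miat. They were, for Mirg, -0.46 ± 0.19 (unadjusted p = 0.027, adjusted p = 0.58), Snhg11 -0.31 ± 0.15, Malat1 -0.25 ± 0.17, Neat1 and Meg3 -0.15 ± 0.15 and -0.15 ± 0.14, Miat -0.10 ± 0.11 and Rian -0.06 ± 0.08. All 7 were below 0, as 49.1% of all genes were, with a median of -0.15. By limma 0 genes were called in the deposited values, with 1238 at an unadjusted p under 0.05 (4.69% of all genes on the lower side), of which Mirg was the only one among the 7. In the recovered reads limma-voom called 11 genes, none of the 7, and gave -0.65 ± 0.18 (adjusted p = 0.14) for Mirg and -0.46 ± 0.13 (0.14) for Snhg11. The wild-type and the saline mutant groups each enter 2 of these comparisons, so their values are not independent.

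The RNAs of the imprinted cluster did not keep a constant ratio. Mirg had 4.85, 4.74 and 5.73 recovered reads per 1000 reads of Meg3 in wild type, 3.5, 3.89 and 3.94 in the saline mutants and 4.02, 4 and 3.5 with UNC0642. Every wild-type library lay above all 6 mutant libraries, those of both sides. Per 1000 reads of Rian, Mirg had 22.3, 24.5 and 33.8 reads in wild type and 15.4 to 19.4 in the 6 mutants, again with no overlap. Mirg had only 120 to 317 reads per library, and no counting interval was computed for these ratios. Rian per 1000 reads of Meg3 did overlap, with 170 to 217 in wild type, 200 to 228 in the saline mutants and 184 to 235 with UNC0642. Of the 21 ratios between 2 of the RNAs, 5 separated wild type from all 6 mutant libraries: Meg3 to Mirg, Rian to Mirg, Miat to Mirg, Meg3 to Snhg11 and Miat to Snhg11. The log2 ratio of Meg3 to Snhg11 was 0.74 ± 0.01 (SD, n = 3) in wild type and 1.02 ± 0.08 (n = 6) in the mutants. The ratios were chosen after the values were seen and carry no test. Over all pairs of 11814 genes with reads in every library and a mean value of at least 5, 13.5% of ratios separated wild type from the 6 mutants in this way. The 2 sides were separated by 5 of the 21 ratios as well, against 28.6% over all pairs, and 2 ratios (Meg3 and Miat to Snhg11) did both.

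**Figure D3:**
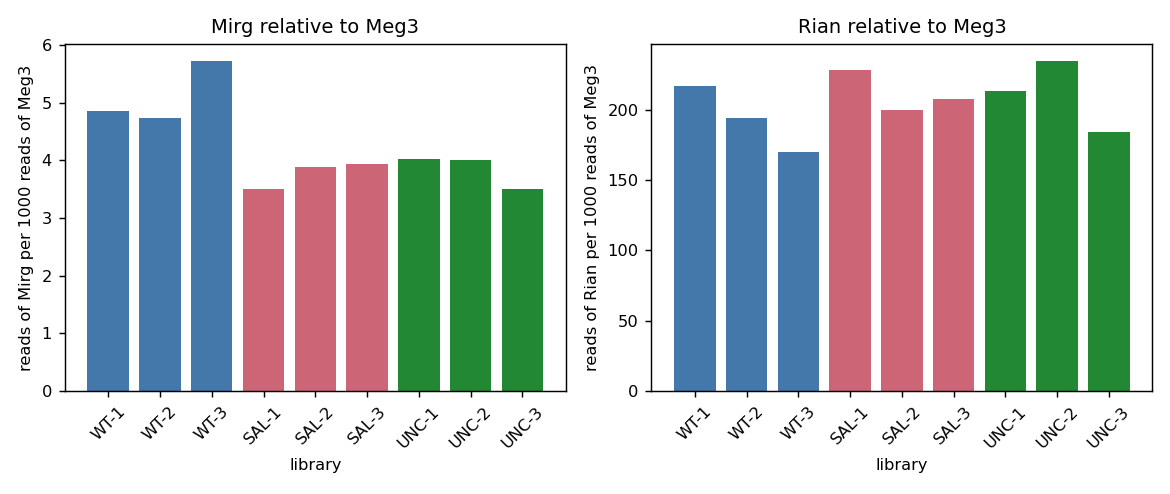
Recovered reads of Mirg (left) and of Rian (right) per 1000 reads of Meg3 in each library, 1 bar per library, axes from 0. The Mirg ratio is 4.74 to 5.73 in wild type and 3.5 to 4.02 in the 6 mutant libraries, whereas the Rian ratio overlaps between groups.

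Among the other genes of the cluster, Begain, which codes for a synaptic protein at its edge, was at 154, 147 and 176 RPM in wild type, 210, 197 and 179 in the saline mutants and 181, 172 and 169 with UNC0642. The saline groups did not overlap, and Begain was called higher by limma-voom in the saline mutants (0.30 ± 0.09 on the log2 scale, adjusted p = 0.044), opposite in sign to Mirg. Of all genes, 5.71% were called higher there. The share with every saline mutant library above every wild-type one was not counted. The paternally expressed genes were low and noisy. Dlk1, a Notch-like ligand, had 0.594 to 3.13 RPM in wild type and 1.28 to 1.98 in the saline mutants. Rtl1, a retrotransposon-derived gene, had 5.77 to 13.9 and 6.42 to 10.7, and Dio3, a deiodinase that inactivates thyroid hormone, 2.56 to 7.28 and 1.83 to 6.67. Of 33 imprinted protein-coding genes measured, 4 were called higher in the saline mutants (Begain, Cd81, Grb10 and Ndn) and 3 lower (Peg3, Ube3a and Zdbf2), with a median of 0.05, in the recovered reads. In these same fits of recovered reads 12.4% of all genes were called in either direction, and in the deposited values none of the 33 was.

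In the deposited values, where the sets share their mean, 9 of the 21 pairs of RNAs passed a test of co-variation between libraries. Expressed as log2 deviation from the mean over 9 libraries, the average of the 7 was 0.35 in WT-3, 0.17 in WT-2 and 0.10 in UNC-1, and -0.31 in UNC-2, -0.15 in WT-1 and -0.11 in SAL-1, with the other 3 libraries between -0.06 and 0.06. All 21 pairs had a positive Pearson's r over the 9 libraries, from 0.29 (Malat1 and Rian) to 0.95 (Meg3 and Snhg11), with a median of 0.78. In the exact permutation test within the 2 adjusted sets (2880 arrangements, two-sided, Benjamini-Hochberg over 21 pairs), 9 pairs had an adjusted p under 0.05, none of them with Malat1 or Rian. The test does not hold the 3 groups or the 2 sides fixed, so differences between them that the RNAs share enter these r. Over the 6 saline libraries alone, as deviations from their group means, 20 of 21 r were positive with a median of 0.77, from 0.56 to 0.97 for the 15 pairs without Malat1. No pair passed there by the exact permutation test within groups (36 arrangements, smallest adjusted p 0.32). With 36 arrangements no p of this test can fall below 0.028, the smallest p seen. Over 21 pairs it could hardly pass any, so it decides nothing about these r. For Meg3 and Snhg11, r was 0.95 (exact permutation p = 0.0031, adjusted p = 0.027) and Spearman's rho 0.95 (exact permutation p = 0.0021, adjusted p = 0.044), the 1 pair that passed by rho. For Mirg and Snhg11, r was 0.94 (exact permutation p = 0.0017, adjusted p = 0.027) and rho 0.93 (adjusted p = 0.062), and for Meg3 and Miat r was 0.92 (exact permutation p = 0.0038, adjusted p = 0.027) and rho 0.93 (adjusted p = 0.064). The number of pairs that passed was 0 without WT-1, 2 without UNC-3, 4 without UNC-2 and 5 without SAL-2 or UNC-1, and 6 or 7 without each of the others.

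Malat1 stood apart in this respect. Its r with the other 6 was 0.29 to 0.78 over 9 libraries, and -0.31 to 0.21 without WT-3 and UNC-2, the libraries farthest from its median, so its relation with the others rests on these 2. For the 15 pairs without Malat1, r without the 2 libraries farthest from the median was between 0.62 (Mirg and Miat) and 0.89 (Meg3 and Miat). The median was that of the first gene of the pair, so the libraries left out differed between pairs. In pairs with Meg3 or Mirg first they were WT-3 and UNC-2, as for Malat1, and r had the same range of 0.62 to 0.89. The libraries share their depth scaling and their adjustment in these values. For each RNA except Malat1, few of 11812 genes with a mean value of at least 5 were as like it as the other members. From 1.3% (Rian) to 3.28% (Mirg) of them reached its median r with the other 6, and 14.2% did for Malat1. The members were chosen with earlier results of these data known, which these shares and the tests of pairs do not allow for.

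**Figure D4:**
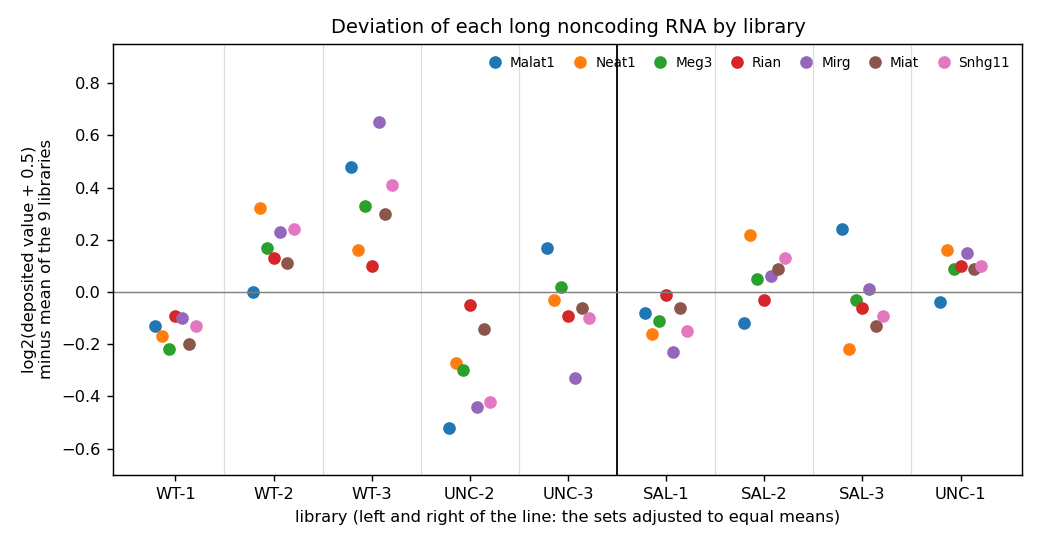
Log2 of the deposited value plus 0.5, minus its mean over the 9 libraries, for each RNA (points) by library (horizontal axis), the 2 adjusted sets separated by a line. All points of WT-3 are above and all points of UNC-2 below 0, and Malat1 departs from the others in WT-2, SAL-2 and SAL-3.

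**Figure D5:**
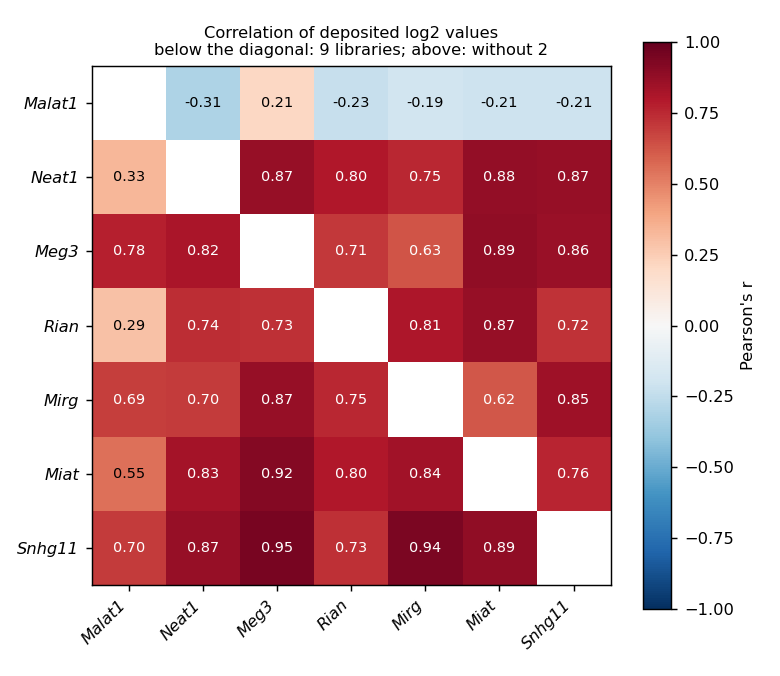
Pearson's r between the RNAs over the deposited log2 values, below the diagonal for all 9 libraries and above it without the 2 libraries farthest from the median of the first gene of the pair. Below the diagonal all 21 values are positive, and above it the row of Malat1 runs from -0.31 to 0.21.

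The genes whose deposited values followed each RNA most closely over the 9 libraries differed between them. For Malat1 these were Nras (r = 0.982), a small GTPase, with Mcmbp and Stag2 (both 0.963), Stag2 being a cohesin subunit. For Neat1 they were Eif2s3y (0.977), Mitf (0.968) and Fam20a (0.961), and for Miat Lrrc45 (0.972), Arap1 (0.967) and Fbln2 (0.966). Meg3 was followed by Ogt (0.990), the enzyme that adds N-acetylglucosamine to nuclear and cytosolic proteins, Cables1 and Git2 (both 0.969), and Rian by D930048N14Rik (0.964), the potassium channel gene Kcnn2 (0.940) and Derl2 (0.925). Mirg was followed by the splicing factor gene Sf3b1 (0.977), Sfi1 (0.973) and Baz2a (0.971), and Snhg11 by Rufy2 (0.992), Abcc5 (0.987) and A330023F24Rik (0.985). These r are descriptions, chosen as the 3 highest among 11812 genes over 9 libraries.

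Among 16 other nuclear or regulatory long noncoding RNAs measured, 12 were below 0 for saline mutant against wild type in the recovered reads, with a median of -0.24, and 3 were called lower by limma-voom, where 49.6% of all genes were below 0 and 6.71% were called lower. With the side as a term, 7 of the 16 were below 0 and the median was 0.06. The 3 called were Kcnq1ot1, a chromatin-bound antisense RNA of another imprinted locus (-1.14 ± 0.26, adjusted p = 0.021), Snhg14, the long host transcript that runs antisense to Ube3a (-0.91 ± 0.21, 0.021), and Mir124a-1hg, the host of a neuronal microRNA (-0.65 ± 0.12, 0.016). Kcnq1ot1 had 48.8, 67.8 and 82.3 RPM in wild type, 25.4, 32.5 and 30.8 in the saline mutants, and 30.9, 32.8 and 68.7 with UNC0642. As for Malat1, UNC-3 was within the wild-type range and UNC-1 and UNC-2 near the saline mutants. As the strand setting of the counting is not stated, reads of Snhg14 and Ube3a, or of Kcnq1ot1 and Kcnq1, cannot be told apart where they overlap. Of 13 small nucleolar RNA host genes other than Snhg11, none was called, with a median of -0.07.

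Proteins of the same nuclear bodies are read against the 6.71% of all genes called lower and the 12.4% called in either direction in the recovered reads. Of 20 nuclear speckle proteins, 9 were called lower and none higher in the saline mutants in the recovered reads (median -0.28), among them Srrm1, a splicing coactivator (-0.34 ± 0.10, adjusted p = 0.038), and Acin1 (-0.42 ± 0.11, 0.032). Of 17 paraspeckle proteins, 2 were called lower, Sfpq (-0.53 ± 0.11, 0.018) and Cpsf6 (-0.47 ± 0.12, 0.031), and the median was -0.03, with Nono at 0.27 ± 0.09 (0.071). Of 10 proteins known to process or bind these RNAs, Qk was called lower (-0.83 ± 0.22, 0.031) and Celf3, like Qk a partner of Miat, higher (0.31 ± 0.09, 0.041). With the side as a term, medians were -0.13 for the speckle proteins, -0.05 for the paraspeckle proteins and 0.06 for the binding proteins, and no gene of these lists was called, nor was any in the deposited values by limma.

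Other lists also differed between the saline groups. All 40 cytosolic ribosomal protein genes were above 0 for saline mutant against wild type in the recovered reads (median 0.26), and limma-voom called 20 higher, as it did 5.71% of all genes. All 10 oligodendrocyte markers were below 0 (median -0.69), with 1 called lower (6.71% of all genes were), and their summed level was 3143 to 5031 RPM in wild type, 1637 to 3645 in the saline mutants and 2697 to 5047 with UNC0642. The summed neuron markers were 8686 to 11196, 10055 to 10824 and 9345 to 10665, and those of astrocytes 5686 to 7371, 4855 to 5251 and 4296 to 7144. All 10 meningeal fibroblast markers were above 0, with a median of 0.40 in the deposited values, 0.48 in the recovered reads and 1.20 there with the side as a term, and 0 called in each. Their summed level was 102 to 168, 150 to 177 and 113 to 259 RPM. Of 10 endothelial and mural markers, 5 were above and 5 below 0 in the recovered reads (median -0.08). Limma-voom called 2 lower, against 6.71% of all genes. They were Flt1, a receptor of vascular growth factors (-0.67 ± 0.16, adjusted p = 0.024), and the pericyte marker Rgs5 (-0.57 ± 0.11, 0.017). The summed level of these 10 was 249 to 306 RPM in wild type, 206 to 245 in the saline mutants and 220 to 252 with UNC0642. Between the saline groups this sum did not overlap, nor did that of the astrocyte markers. The sum of the ribosomal protein genes did not overlap either, and was higher in the mutants. Of single genes, 19.8% had every saline mutant library below every wild-type one, and the share with every one above was not counted. Of the 10 astrocyte markers, 8 were below 0 in the recovered reads (median -0.17). With the side as a term 9 were above 0 (median 0.34), as were 6 in the deposited values (median 0.03), and 0 were called in each. No marker of these lists was at 0 reads when the 9 libraries were added up, and single libraries were not counted. The part of cell composition in the values of the 7 RNAs was not tested, and in bulk tissue fewer cells of a type and less RNA per cell cannot be told apart.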

How the data were processed

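Total RNA was extracted with Trizol and sequenced after ribosomal depletion in stranded libraries, per the labels' protocols. Cutadapt, TopHat2, HTSeq and the mm9 build are named in the submitters' processing notes, without versions or a strand setting. Per gene, the deposited values, a signal per gene that the authors call CPM, were not plain CPM: their mean log2 was equal in 2 sets of 5 and 4 libraries. Whole reads were recovered for all 14444 genes (100% of values lay within 0.02 reads of a whole number) after a prior of 3.0 reads on average, and divided by TMM library sizes for reads per 1000000 (RPM).

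The main test was limma 3.58.1 in R 4.3.3, its trend option on, of log2(value + 0.5) of all 9 libraries over all genes, with Benjamini-Hochberg adjustment and calls made at an adjusted p under 0.05; such differences understate changes of low genes. limma-voom was run on recovered reads, and edgeR and DESeq2 were not used. Both steps were tested on simulated data. Of 200 genes changed by a log2 of 1 in the saline mutants alone, limma on values adjusted as deposited called 0 and limma-voom on reads 193. The simulated libraries were not divided into 2 sides, so this does not show what the calls in the real reads stand for. RPKM used GENCODE M21 exon lengths.

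The members and lists were chosen with earlier results of these data known. Genes named were the 7 members, the 3 most correlated genes for each, the genes of the Dlk1-Dio3 cluster and up to 4 of smallest p per list; genes behind counts of 5 or fewer, and Begain, Kcnq1ot1 and Celf3 values by library, were named after their values were seen.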

Additional observations from a re-analysis of the deposited data

How the results depend on the processing

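For the 3 comparisons of deposited values, pseudocounts of 0.1 and 1, a filter on low values, 2 other scalings, an adjusted p under 0.1 and a replicate block gave the same calls as reported for the 7 RNAs. Same-numbered libraries had r of -0.15 to 0.12 for wild type and saline mutants, -0.07 to 0.31 for wild type and UNC0642 and -0.19 to -0.08 for the mutants. The numbers were not used as pairs, but 3 libraries a group cannot exclude a pairing. With the replicate block 0 genes were called in each comparison, while the SE of Malat1 for UNC0642 against wild type was 0.11 in place of 0.17. For saline mutant against wild type, 5 genes were called with only these 2 groups, 1 with the adjusted set as a term and 1794 in the recovered reads, against 0; the last number was 1758 without WT-1, 14 without WT-2, 403 without WT-3, 18 without SAL-1, 500 without SAL-2 and 24 without SAL-3, and that of the 7 RNAs called lower ran from 0 to 7, an alternative chosen after seeing the data. For UNC0642 against wild type, 4 genes were called with the adjusted set as a term, 4 without UNC-1, 11 in the recovered reads and 5 with the side as a term, against 0, with 0 to 4 over the libraries left out. The count of RNAs below 0 for UNC0642 against saline, 5, was 1 with the adjusted set, 0 in the recovered reads, 1 with the side as a term, 1 in the 5 mutant libraries of 1 side and 1 to 7 without single libraries. The number of correlated pairs, 9, was 1 by Spearman's rho and 0 to 7 without single libraries. It was 0 within the 2 saline groups (chosen after seeing the data), where 36 arrangements could hardly give a pass. The recovered reads, an alternative planned for this number, were not run because their 2 sides hold 4 and 5 libraries. In recovered RPM, mean levels in the saline mutants were 640 (Malat1), 23.9 (Neat1), 2914 (Meg3), 616 (Rian), 11 (Mirg) and 1400 (Snhg11), and 39.3 for Neat1 in wild type, moved by over 1 SD from the deposited 762, 29.2, 3141, 643, 13.1, 1640 and 32.6. The deposited values hold the adjustment of the 2 sets and the recovered ones do not. What lay behind the difference between the sets was not tested. Depth limits Mirg and Neat1 most.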
